A study of Mus musculus with 6 samples.

Results

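Collagens are the main structural proteins of the extracellular matrix, each built from chains that wind around each other as a helix. The chains of 1 type are often made from separate genes. Fibrillar collagens form the fibrils of dentin, bone, cartilage and ligament. The FACIT group (fibril-associated collagens with interrupted triple helices) decorates those fibrils, the type IV chains form the sheet of basement membranes, and the remaining types form beaded filaments, hexagonal nets, anchoring structures and membrane-bound or shed proteins. In a growing tooth root, type I collagen is the bulk of the dentin matrix laid down by odontoblasts. Every row of the deposited gene table whose name has the form Col, a number, the letter a and a number was taken, which gave 44 collagen genes of 27 types among 23594 genes. By class these were 11 fibrillar, 9 FACIT, 6 basement membrane and 18 other collagens.

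RNA was sequenced from the apical tissue at the furcation development region of mouse mandibular first molars at 4.5 days of age, cut from sections by laser capture, with 3 Control and 3 Lhx6-/- libraries and tissue of 8 molars pooled in each library. The labels give the strain as C57BL/6 for both genotypes and call the Control animals wild type. The study's methods call the animals littermates. In the Lhx6-/- animals both copies of Lhx6, which encodes a LIM homeodomain transcription factor, carry an Lhx6-CreER knock-in that removes its function, so the gene is lost in the whole animal and not in the tooth alone. The labels do not tie a library to a litter, so the p-values measure the spread between these 6 pooled samples.

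The library totals ran from 60132323 to 76157433 estimated counts. Levels are given as counts per 1000000 (CPM) after TMM scaling, a correction for library composition. Lhx6 itself, the targeted gene, was lower in every Lhx6-/- library (12.8, 9.82 and 10.5 CPM) than in any Control library (27.8, 18.2 and 21.9 CPM), with an adjusted p of 0.021 from edgeR. Across the marker lists, the summed levels of dental epithelium and red blood cells were lower in all 3 Lhx6-/- libraries. Red blood cell genes summed to 3037 to 3765 CPM in Control and 1610 to 2405 CPM in Lhx6-/- libraries. The sums of cartilage, endothelium, pericytes and odontoblasts were higher. For cartilage and odontoblasts the difference lay mostly in Matn4 and in Dspp. The other values are given beside the genes they concern. The list of Y-linked genes, which depends on the sex of the pooled animals, summed to 14.6 to 58.0 CPM in Control and 55.1 to 92.1 CPM in Lhx6-/- libraries, and its part in the results was not tested beyond a fit with it as a covariate. In tissue RNA of this kind, fewer cells of a type and less RNA per cell cannot be told apart.

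Collagens took 10.3% to 12.9% of all estimated counts in the 6 libraries, and the type I chains Col1a1 and Col1a2 made up 87.6% to 89.1% of the summed collagen CPM. CPM per kilobase of exon (CPM per kb) divides by the union of all annotated exons, which can exceed the transcript in use. Comparisons between genes on this scale depend on that length. The mean Control level was 11579 for Col1a1 with 6.563 kb of exon and 2241 for Col1a2 with 12.426 kb. Next in order came Col11a2 with 295.1 CPM per kb, Col3a1 with 238.4, Col5a2 with 142.4, Col5a1 with 116.8, Col6a1 with 105.0 and Col2a1 with 104.4. The neighbours Col6a1 and Col2a1 differed by less than the spread of Col2a1 between Control libraries, which was 19.5% of its mean. Only these 8 collagens exceeded 100 CPM per kb in Control. Col6a2, close to Col6a1 in CPM, stood at 53.9 CPM per kb with 8.326 kb of exon against 4.38 kb. The lowest were Col19a1 with 0.0214 CPM per kb and Col4a3 with 0.024. Of the 44 genes, 32 had a mean of at least 10 CPM over the 6 libraries and 4 had a mean under 1 CPM.

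The comparison of Lhx6-/- with Control tissue asks how loss of Lhx6 relates to collagen transcripts at the start of root formation. All 44 collagens passed the expression filter and were tested with edgeR's quasi-likelihood test, fitted on all 20114 genes that passed. After Benjamini-Hochberg adjustment over all genes 2 collagens, Col9a1 and Col8a1, had an adjusted p under 0.05, both higher in Lhx6-/- tissue, where 0.403% of all tested genes passed. The study's own rule, a 1.5-fold or larger change and an unadjusted p under 0.05, was met by 6 collagens, against 3.28% of all genes. These were Col9a1, Col9a2 and Col19a1 of the FACIT class and Col8a1, Col6a4 and Col28a1 of the other types. All 6 were higher in Lhx6-/- tissue, a direction in which 1.58% of all genes met the rule, and none of the 44 met it in the lower direction, in which 1.71% of all genes did. The count with an adjusted p under 0.05 depended on the libraries. It was 4 without Control replicate 1 or without Lhx6-/- replicate 3, when Col9a2 and Col8a2 also passed. It was 1, Col9a1 alone, without Control replicate 3 or without Lhx6-/- replicate 2. In these fits, in the same order, 127, 63, 12 and 20 of all tested genes passed, against 81 with all libraries.

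Small positive differences were spread over the family. The log2 fold change was above 0 for 37 of the 44 collagens and for 49.7% of all tested genes, with a median of 0.18 over the collagens and -0.002 over all genes. Among the 32 collagens with a mean of at least 10 CPM it was above 0 for 27, with a median of 0.12, while 49.1% of all genes at that level were above 0. An unadjusted p under 0.05 was reached by 16 collagens in the higher direction, against 4.75% of all genes, and by 3 collagens (Col2a1, Col7a1 and Col17a1) in the lower direction, against 5.07%. All 3 Lhx6-/- libraries lay above all 3 Control libraries for 19 collagens, where 7.86% of all tested genes showed such a separation. The reverse held for 2, Col7a1 and Col17a1, against 7.68% of all genes. Control replicate 2 was the lowest Control library for 22 of the 32 collagens with a mean of at least 10 CPM, and Lhx6-/- replicate 1 was the highest Lhx6-/- library for 18. The 44 genes are not independent of each other, and with the level of dental epithelial genes as a covariate 30 of the 44 were above 0, 29 of them among the 37, with a median of 0.09.

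**Figure D1:**
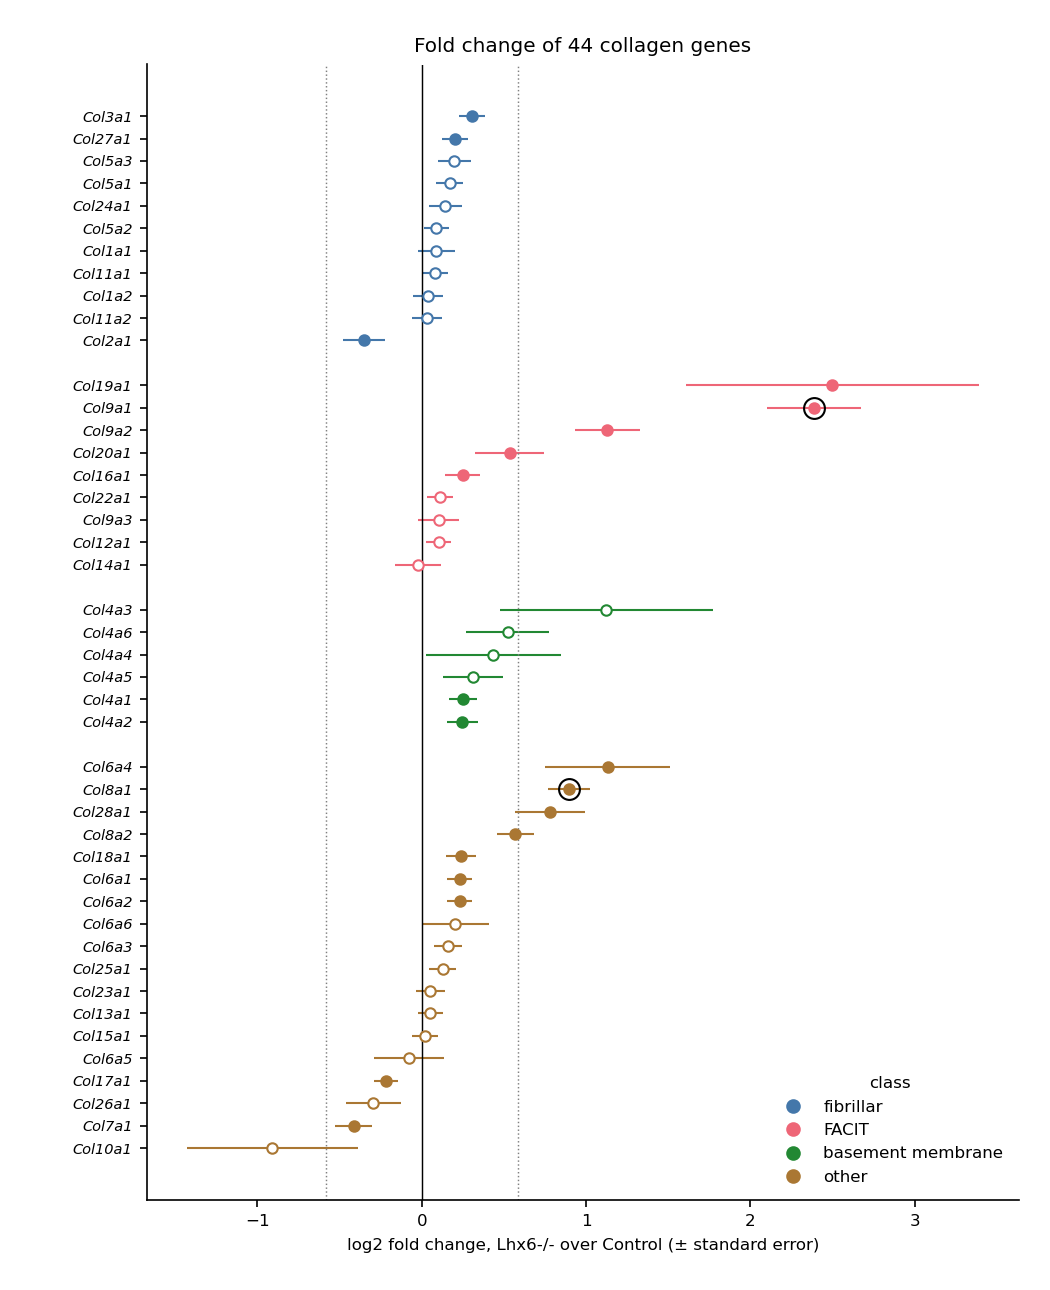
Log2 fold change of each of the 44 collagen genes, Lhx6-/- over Control, with its standard error (SE) from edgeR, grouped by class. Filled points had an unadjusted p under 0.05, black rings mark the 2 genes with an adjusted p under 0.05, and dotted lines mark a 1.5-fold change. The class of basement membrane chains lies wholly to the right of 0, and Col9a1 and Col19a1 lie farthest to the right.

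By class, all Lhx6-/- libraries lay above all Control libraries for 3 of 11 fibrillar, 5 of 9 FACIT, 3 of 6 basement membrane and 8 of 18 other collagens. Over all tested genes the share was 7.86%. The median log2 fold change was 0.09 in the fibrillar, 0.25 in the FACIT, 0.37 in the basement membrane and 0.14 in the other class. The differences between classes were not tested.

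**Figure D2:**
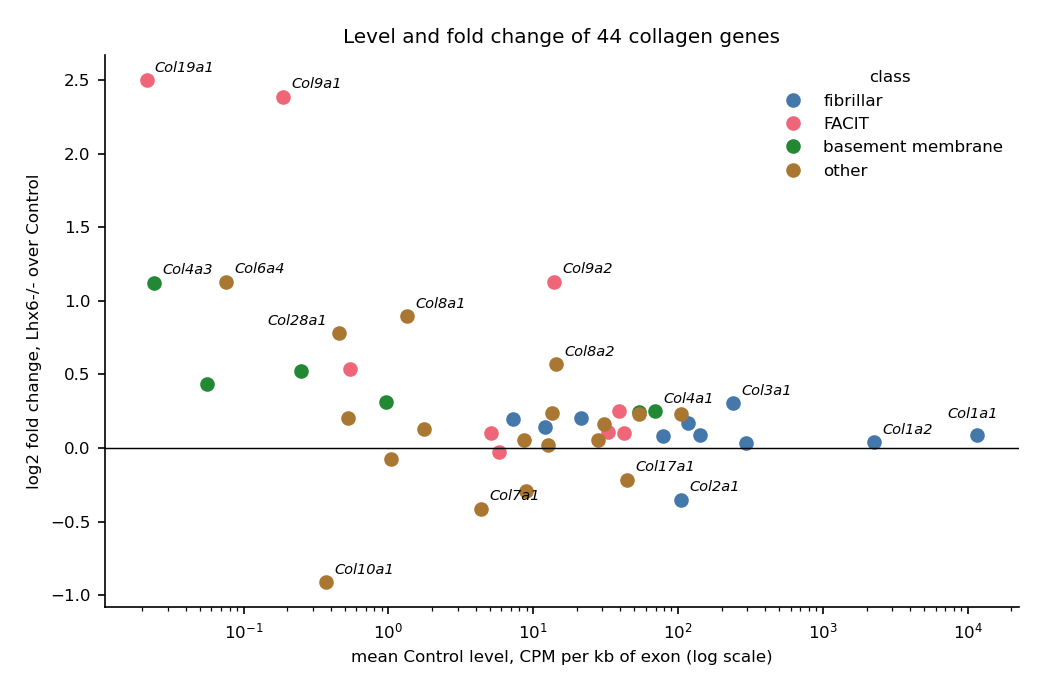
Log2 fold change of the 44 collagens against their mean Control level in CPM per kb of exon on a log axis, coloured by class. The largest changes lie at low levels, while Col9a2 and Col8a2 stand above 0 at about 14 CPM per kb and Col1a1 and Col1a2 lie close to 0 at the far right.

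The collagens with an adjusted p under 0.05 are chains of type IX, a FACIT whose molecule holds the chains α1, α2 and α3 from Col9a1, Col9a2 and Col9a3 and sits on the surface of type II fibrils in cartilage, and of type VIII, a short-chain collagen of the α1 and α2 chains from Col8a1 and Col8a2 that forms hexagonal nets and is known from vessel walls and the cornea. The 250 bases before each annotated start are shown, since pairs of chains of 1 protein could be compared there. Col9a3 had no such sequence at hand. They are RefSeq sequences of build GRCm38.p6, 5′ to 3′ on the strand of the gene, and the capitals mark a GC box (GGGCGG) or a CCAAT box (CCAAT) on either strand. The first Col9a1 sequence is chr1:24177360-24177609 on the plus strand, before the upstream start, and the second is chr1:24194953-24195202, before the start of the shorter form. The others are chr4:121039316-121039565 (plus strand) for Col9a2, chr16:57754738-57754987 (minus strand) for Col8a1 and chr4:126286544-126286793 (plus strand) for Col8a2.
The GENCODE gene of Col9a2 begins within the sequence printed for it, upstream of the RefSeq start.
Col9a1 upstream start: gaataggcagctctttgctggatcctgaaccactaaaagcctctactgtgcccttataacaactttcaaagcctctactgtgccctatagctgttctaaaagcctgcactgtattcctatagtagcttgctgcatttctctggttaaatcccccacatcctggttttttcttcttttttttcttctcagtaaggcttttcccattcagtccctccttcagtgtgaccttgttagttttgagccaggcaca
Col9a1 downstream start: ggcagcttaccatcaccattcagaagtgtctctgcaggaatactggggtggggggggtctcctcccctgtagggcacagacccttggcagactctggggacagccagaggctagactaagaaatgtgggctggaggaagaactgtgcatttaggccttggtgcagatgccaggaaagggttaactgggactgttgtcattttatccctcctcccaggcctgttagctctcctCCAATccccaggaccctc
Col9a2: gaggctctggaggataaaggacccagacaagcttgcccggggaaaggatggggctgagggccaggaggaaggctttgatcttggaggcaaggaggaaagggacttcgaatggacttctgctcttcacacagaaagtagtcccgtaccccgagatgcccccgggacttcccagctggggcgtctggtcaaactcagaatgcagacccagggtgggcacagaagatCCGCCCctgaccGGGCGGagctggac
Col8a1: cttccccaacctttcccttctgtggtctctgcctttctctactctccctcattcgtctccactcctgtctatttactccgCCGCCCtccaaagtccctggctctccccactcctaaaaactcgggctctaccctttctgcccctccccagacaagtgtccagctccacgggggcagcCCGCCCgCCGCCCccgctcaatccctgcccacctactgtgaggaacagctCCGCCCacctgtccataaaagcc
Col8a2: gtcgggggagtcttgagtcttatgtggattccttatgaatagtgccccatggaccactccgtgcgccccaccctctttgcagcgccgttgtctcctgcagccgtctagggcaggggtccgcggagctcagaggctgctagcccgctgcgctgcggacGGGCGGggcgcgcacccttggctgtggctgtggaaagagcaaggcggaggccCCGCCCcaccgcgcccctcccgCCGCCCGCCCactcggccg
The sequences before Col8a1 and Col8a2 hold 4 GC boxes each and that before Col9a2 holds 2, while neither Col9a1 sequence holds one. The last 2 GC boxes before Col8a2 overlap each other, and no GC box shares a base with a CCAAT box. The CCAAT box before the downstream Col9a1 start begins 18 bases before it. G and C made up 43.6% and 56.0% of the bases before the upstream and downstream Col9a1 starts, 60.4% before Col9a2, 60.8% before Col8a1 and 70.0% before Col8a2.

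RefSeq windows of 300 bases, from 250 before to 50 after a start, were at hand for 35 of the 44 collagens (38 windows). GGGCGG, on either strand, was in 23 of the 38 collagen windows (60.5%) and in 35.7% of all 32851 windows. CCAAT was in 13 (34.2%) and in 37.4% of all windows. The TATA box TATAAA was in 5 (13.2%, against 13.6%). TAATTA, the core letters read by many homeodomain proteins, the family of Lhx6, was in 2 collagen windows, those of Col10a1 and Col11a2 (5.26%, against 5.29% of all windows). ACAAAG, core letters read by SOX proteins, was in 5 (13.2%, against 18.7%), none of them of Col9a1, Col9a2 or type VIII. Col9a3 had no window. A match in these windows is a description of letters only.

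Col9a1 (mm10 chr1:24177610-24252684, plus strand) was at 0.835, 0.943 and 1.07 CPM in Control and at 6.89, 4.70 and 3.32 CPM in Lhx6-/- libraries (replicates 1, 2 and 3 in this order, here and in what follows). The Lhx6-/- libraries were all above the Control libraries, with replicate 1 the highest. The mean rose from 0.948 ± 0.115 CPM to 4.97 ± 1.80 CPM (SD, n = 3 each), a 5.23-fold increase (log2 fold change 2.39, SE 0.29, adjusted p = 0.00576 from edgeR with Benjamini-Hochberg adjustment). The adjusted p stayed under 0.05 in 17 of 18 alternative fits and was 0.0779 with dental epithelial genes as a covariate, where the log2 fold change was 2.16. The counts put the gene low even in Lhx6-/- tissue, at 0.981 CPM per kb against 30.3 CPM per kb for Col9a2. Because counts are per gene, they do not show which of the starts was used.

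Col9a2 (chr4:121039385-121055322, plus strand) was at 51.8, 35.1 and 41.9 CPM in Control and at 116, 90.5 and 75.8 CPM in Lhx6-/- tissue. The groups did not overlap, and Lhx6-/- replicate 1 was again the highest. The log2 fold change was 1.13 (SE 0.20, 2.19-fold) with an unadjusted p of 0.000887 and an adjusted p of 0.116 from edgeR, so Col9a2 met the fold rule and not the adjusted threshold. The adjusted p was under 0.05 in 7 of the 18 alternative fits, including 0.0341 without Control replicate 1 and 0.0483 without Lhx6-/- replicate 3, and ranged from 8.89e-11 to 0.332 over the 18.

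Col9a3 (chr2:180597790-180622189, plus strand), the remaining type IX chain, was at 17.0, 22.7 and 19.3 CPM in Control and 20.0, 19.1 and 24.4 CPM in Lhx6-/- tissue, and the groups overlapped. Its log2 fold change was 0.10 (SE 0.13, adjusted p = 0.871 from edgeR), with a sign that turned without Lhx6-/- replicate 3 (-0.01) and with Y-linked genes as a covariate (-0.15). Opposite-strand exons of Tcfl5 cover 6.07% of the exon bases of Col9a3, and it is not given whether the counting used strand. Both ratios of Col9a1 to another type IX chain separated the groups. They share the Col9a1 values given above, so they add no separate result. The ratio of Col9a1 to Col9a3 in CPM was 0.049, 0.041 and 0.055 in Control and 0.345, 0.246 and 0.136 in Lhx6-/- tissue (exact two-sided permutation p = 0.1, the smallest that 3 against 3 libraries allow, and 0.55 after Benjamini-Hochberg adjustment over 11 chain ratios). That of Col9a1 to Col9a2 was 0.016, 0.027 and 0.025 in Control and 0.060, 0.052 and 0.044 in Lhx6-/- tissue (exact permutation p = 0.1, adjusted 0.55). For both ratios all Lhx6-/- libraries were above all Control libraries.

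Type IX collagen is known from cartilage, so the other cartilage genes are given beside it. The summed level of the cartilage list, without collagens, was 143 to 150 CPM in Control and 189 to 232 CPM in Lhx6-/- libraries. Most of that difference lay in Matn4, with means of 72.7 CPM in Control and 123 CPM in Lhx6-/- libraries. Of 18 listed genes 14 were in the table and 13 were tested, 10 with a log2 fold change above 0 and 3 below. Of all tested genes 49.7% were above 0. The fold rule was met by 4 of the 13, all higher, against 1.58% of all genes in that direction. In edgeR 2 passed the adjusted threshold, against 0.403% of all genes. The first was Matn4, which encodes a matrilin of cartilage and other matrices, at 68.0 to 78.4 CPM in Control and 109 to 140 CPM in Lhx6-/- libraries. The second was Sox5, a partner of SOX9 in cartilage, at 1.44 to 2.01 CPM against 3.27 to 4.44 CPM. Cnmd, the cartilage glycoprotein chondromodulin, was at 1.69, 0.569 and 0.609 CPM in Control and 8.46, 3.05 and 3.47 CPM in Lhx6-/- tissue, with replicate 1 the highest as for Col9a1. Like Cnmd, Hapln1 met the fold rule and not the adjusted threshold. It was at 5.48 to 6.85 CPM in Control and 8.23 to 10.8 CPM in Lhx6-/- libraries. The cartilage genes Acan (aggrecan, 14.8 to 18.2 CPM against 15.8 to 17.1 CPM) and Sox9 (25.5 to 28.9 CPM against 27.5 to 31.2 CPM) overlapped between the groups. Ucma, a gene of cartilage, was at 0 in 1 library and under 0.150 CPM in all others. The part of cartilage cells in the levels of Col9a1 and Col9a2 was not tested.

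**Figure D3:**
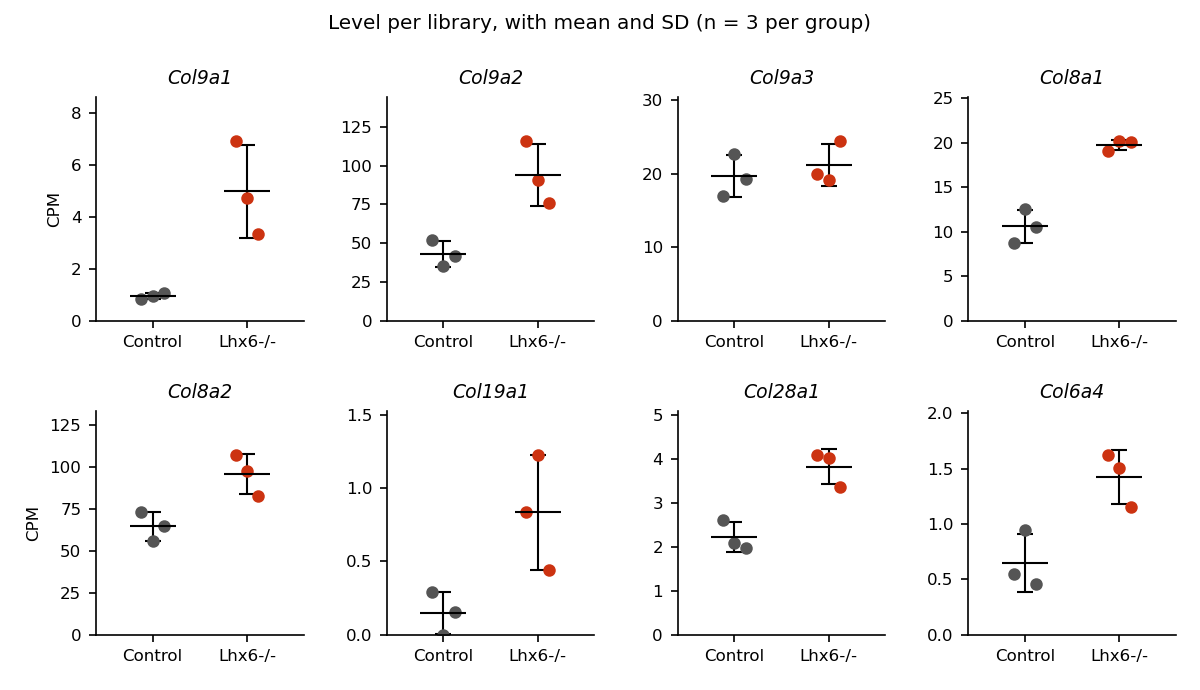
CPM per library of 8 collagens in 3 Control (grey) and 3 Lhx6-/- (red) libraries, with black lines for the mean and SD and each axis starting at 0. Except for Col9a3, all Lhx6-/- points lie above all Control points, and Lhx6-/- replicate 1, drawn at the left of its group, is the highest for Col9a1, Col9a2, Col8a2, Col28a1 and Col6a4.

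Both type VIII chains were higher in Lhx6-/- tissue. Col8a1 (chr16:57624258-57754737, minus strand) was at 8.79, 12.5 and 10.5 CPM in Control and at 19.1, 20.1 and 20.0 CPM in Lhx6-/- libraries, which lay close together and apart from Control. The mean rose 1.86-fold, from 10.6 ± 1.86 CPM to 19.7 ± 0.583 CPM (SD, n = 3 each), with a log2 fold change of 0.90 (SE 0.13, adjusted p = 0.011 from edgeR). That call was lost in 4 of 18 alternative fits. The log2 fold change was then 0.89 without Control replicate 3 (adjusted p = 0.0837), 0.89 without Lhx6-/- replicate 2 (adjusted p = 0.0879), 1.004 with the covariate of osteoblast and odontoblast genes (adjusted p = 0.0844) and 0.62 with the Y-linked covariate (adjusted p = 0.0967). Col8a2 (chr4:126286793-126314330, plus strand) was at 73.0, 55.7 and 65.0 CPM in Control and at 107, 97.6 and 82.8 CPM in Lhx6-/- libraries, again without overlap. Its log2 fold change of 0.57 (SE 0.11, 1.48-fold, adjusted p = 0.0855 from edgeR) fell just short of the 1.5-fold line of 0.585 and of the adjusted threshold. Leaving out Control replicate 1 gave Col8a2 an adjusted p of 0.0322 and leaving out Lhx6-/- replicate 3 gave 0.0303, and it was under 0.05 in 5 of 18 alternatives. Per kb of exon Col8a2 stood well above Col8a1, at 14.4 against 1.35 CPM per kb in Control. The ratio of Col8a1 to Col8a2 in CPM overlapped between groups, at 0.120 to 0.225 in Control and 0.179 to 0.242 in Lhx6-/- libraries (exact permutation p = 0.3).

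Among the vessel genes that type VIII and type IV collagens are often found beside, all 14 of the endothelial list had a log2 fold change above 0. Their summed level was 575 to 601 CPM in Control and 650 to 751 CPM in Lhx6-/- libraries, and 1 of them, the junction gene Cldn5, had an adjusted p under 0.05 from edgeR. Of 12 pericyte and smooth muscle genes 11 were above 0, with a summed level of 724 to 772 CPM in Control and 900 to 1037 CPM in Lhx6-/- libraries, and 1 of them, the pericyte gene Rgs5, passed the adjusted threshold. Over all tested genes 49.7% were above 0 and 0.403% passed the adjusted threshold. No gene of either list was at 0 in any library. The part of vessel cells in the collagen levels was not tested.

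The remaining FACIT genes held both the rarest and some of the more abundant members of the class. Col19a1, a rare collagen of basement membrane zones (chr1:24261890-24587472, minus strand), was at 0.289, 0 and 0.152 CPM in Control and 0.835, 1.22 and 0.443 CPM in Lhx6-/- libraries. It met the fold rule (log2 fold change 2.50, SE 0.89, unadjusted p = 0.0178, adjusted p = 0.372 from edgeR). With no more than 91 estimated counts in any library, its level is limited by counting error as well as by the spread between libraries, and the fitted log2 fold change ran from 1.28 to 5.94 over the 17 alternatives that tested it. Col9a1 and Col19a1 lie end to end on chromosome 1 (mm10, 9205 bases apart, on opposite strands and pointing at each other). Whether reads from 1 gene run into the other was not tested. Col20a1 was at 2.32 to 3.28 CPM in Control and 3.52 to 4.59 CPM in Lhx6-/- libraries (log2 fold change 0.54, unadjusted p = 0.0256, adjusted p = 0.418 from edgeR).

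None of the abundant FACIT genes Col12a1, Col22a1 and Col16a1 met either rule. Col12a1, whose product binds type I fibrils in ligament and other dense tissue, was at 659, 610 and 660 CPM in Control and 693, 718 and 661 CPM in Lhx6-/- tissue (log2 fold change 0.10, adjusted p = 0.738 from edgeR). Col22a1, a collagen of tissue junctions, was at 316, 275 and 312 CPM against 328, 313 and 336 CPM (0.11, adjusted p = 0.72). For Col16a1 the values were 275, 238 and 282 CPM in Control and 358, 316 and 269 CPM in Lhx6-/- tissue, where replicate 3 lay inside the Control range (0.25, SE 0.11, unadjusted p = 0.037, adjusted p = 0.475). Col14a1, which also binds type I fibrils, was the 1 FACIT gene below 0 (-0.03, adjusted p = 0.979). The summed FACIT level was 1355, 1232 and 1361 CPM in Control and 1566, 1503 and 1418 CPM in Lhx6-/- libraries, a difference of 13.7% without overlap.

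All 6 type IV genes had a log2 fold change above 0, and none met either rule. Col4a1 and Col4a2 make the chains of the common basement membrane network and took nearly all of the class. Col4a1 was at 534, 505 and 516 CPM in Control and 684, 580 and 585 CPM in Lhx6-/- libraries (log2 fold change 0.25, SE 0.08, unadjusted p = 0.0113, adjusted p = 0.314 from edgeR). Col4a2 was at 383, 340 and 350 CPM in Control and 486, 396 and 391 CPM in Lhx6-/- libraries (0.25, SE 0.10, unadjusted p = 0.0233, adjusted p = 0.406). For both the groups did not overlap and Lhx6-/- replicate 1 was the highest. These genes start head to head on chromosome 8 of mm10, with 22 bases shared between their annotated first exons on opposite strands. Their ratio hardly varied, from 1.39 to 1.48 in Control and from 1.41 to 1.497 in Lhx6-/- libraries (exact permutation p = 0.8), with a sign that turned without Control replicate 1 and without Lhx6-/- replicate 3.

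The less common type IV chains, which replace or join that network in particular organs, were low. Col4a5 was at 5.21 to 8.35 CPM in Control and 7.32 to 8.77 CPM in Lhx6-/- libraries, with a log2 fold change of 0.31 (adjusted p = 0.642 from edgeR) that became -0.06 with the Y-linked covariate. Its X-linked neighbour Col4a6 was at 1.45 to 2.25 CPM against 2.54 to 3.22 CPM, without overlap (0.52, adjusted p = 0.539). Col4a4 (0.498 to 0.643 CPM against 0.638 to 0.967 CPM) and Col4a3 (0.085 to 0.329 CPM against 0.327 to 0.766 CPM) were near the limit of detection and overlapped between groups. The summed level of the class was 924, 856 and 874 CPM in Control and 1182, 987 and 989 CPM in Lhx6-/- libraries, 18.6% higher without overlap, beside the higher summed vessel lists given above.

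The fibrillar class carried the mass of collagen RNA and had the smallest median log2 fold change of the 4 classes. Col1a1 was at 85297, 64844 and 77840 CPM in Control and 84075, 76818 and 81349 CPM in Lhx6-/- libraries, so the Lhx6-/- values lay within the Control range (log2 fold change 0.09, SE 0.11, adjusted p = 0.88 from edgeR). Col1a2 was at 30092, 25591 and 27869 CPM in Control and 28816, 27946 and 29105 CPM in Lhx6-/- libraries (0.04, SE 0.09, adjusted p = 0.947). Control replicate 2 was the lowest for both chains, and without it the log2 fold changes were -0.01 and -0.02. The ratio of Col1a1 to Col1a2 was 2.53 to 2.84 in Control and 2.75 to 2.92 in Lhx6-/- libraries in CPM (exact permutation p = 0.5). Per length it averaged 5.15 and 5.34, which depends on the union exon lengths of both genes. Beside these, the osteoblast list summed to 8305 to 8615 CPM in Control and 8187 to 8652 CPM in Lhx6-/- libraries. The odontoblast list summed to 5937 to 6417 CPM and 7089 to 7794 CPM in the same order. Most of that difference lay in Dspp, with means of 4466 and 5606 CPM. Of the 9 odontoblast genes tested 7 were above 0 and 2 below, with a median of 0.08. The share above 0 was 49.7% over all tested genes. The summed fibrillar level differed by 5.96% with overlap, and the summed level of all 42 collagens other than type I by 9.51%, from 12757 to 14063 CPM in Control to 14394 to 15293 CPM in Lhx6-/- libraries.

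Col3a1, whose type III fibrils accompany type I in soft and young connective tissue, had the highest log2 fold change of the fibrillar class. It was at 2334, 2389 and 2298 CPM in Control and 3026, 2954 and 2699 CPM in Lhx6-/- libraries, without overlap and with a spread of 1.95% between Control libraries. The log2 fold change was 0.31 (SE 0.08, 1.24-fold), with an unadjusted p of 0.00275 and an adjusted p of 0.202 from edgeR. The ratio of Col3a1 to Col1a1 overlapped between groups (0.027 to 0.037 in Control and 0.033 to 0.038 in Lhx6-/- libraries, exact permutation p = 0.3). Col27a1, a fibrillar collagen of cartilage and tooth, was at 253 to 292 CPM against 302 to 334 CPM (0.20, unadjusted p = 0.0271, adjusted p = 0.425).

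Col2a1, the fibrillar collagen of cartilage, lay in the other direction from the type IX chains that sit on its fibrils. It was at 982, 769 and 1144 CPM in Control and 806, 772 and 694 CPM in Lhx6-/- libraries, which overlapped because Control replicate 2 was low. The log2 fold change was -0.35 (SE 0.13, unadjusted p = 0.0212, adjusted p = 0.391 from edgeR), and it became 0.08 with the Y-linked covariate. In Control the level of Col2a1 per kb was 104.4, against 0.187 for Col9a1, 13.9 for Col9a2 and 5.11 for Col9a3. The type V and XI chains, which join type I and type II fibrils, differed less, and none had an unadjusted p under 0.05. Col5a1 was at 1061, 919 and 996 CPM in Control and 1161, 1098 and 1087 CPM in Lhx6-/- tissue (0.17, adjusted p = 0.539), and Col5a2 at 1420, 1341 and 1337 CPM against 1446, 1407 and 1504 CPM (0.09, adjusted p = 0.791). Col11a1 was at 961 to 1040 CPM against 1003 to 1121 CPM (0.08, adjusted p = 0.824) and Col11a2 at 1837 to 2265 CPM against 1961 to 2157 CPM (0.03, adjusted p = 0.958). Col5a3 and Col24a1 had log2 fold changes of 0.20 and 0.14 with overlap between groups.

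**Figure D4:**
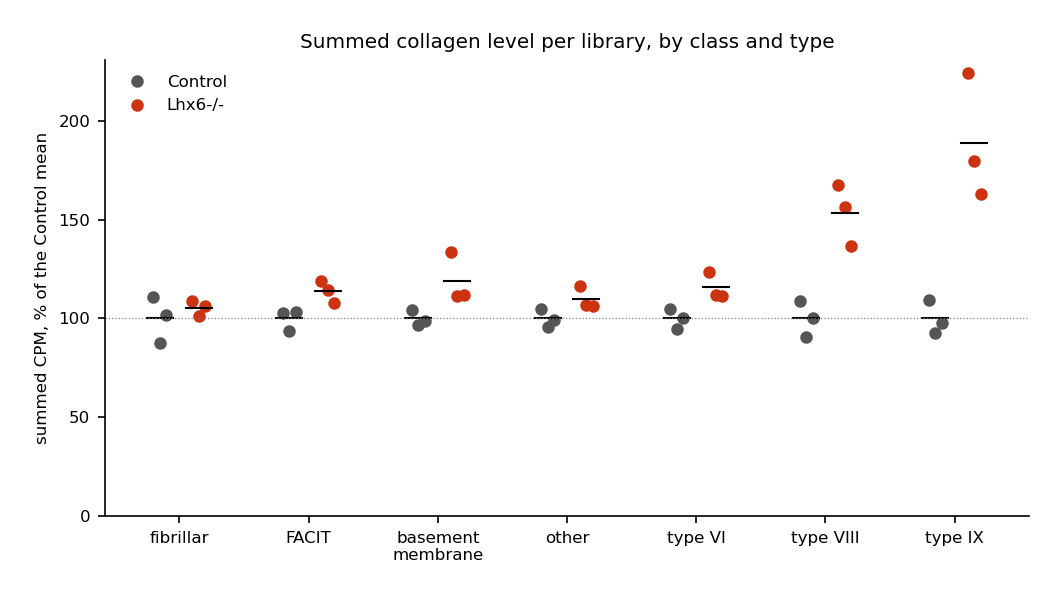
Summed CPM of collagen classes and of types VI, VIII and IX in each library, as a percentage of the Control mean, with a line for each group's mean. The fibrillar sums of the groups overlap, while for the other classes and types all Lhx6-/- libraries lie above all Control libraries.

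Among the other types, the type VI chains of beaded filaments, found around most connective tissue cells, were the most abundant. Col6a1 was at 470, 443 and 468 CPM in Control and 575, 521 and 525 CPM in Lhx6-/- libraries (log2 fold change 0.23, SE 0.08, unadjusted p = 0.00968, adjusted p = 0.299 from edgeR). Col6a2 was at 462, 432 and 452 CPM in Control and 564, 503 and 511 CPM in Lhx6-/- libraries (0.23, SE 0.08, unadjusted p = 0.011, adjusted p = 0.31). Both pairs of groups were apart, and the ratio of Col6a1 to Col6a2 ran from 1.017 to 1.035 in Control and from 1.019 to 1.035 in Lhx6-/- libraries (exact permutation p = 0.7), with a sign that turned without Control replicate 1 and without Lhx6-/- replicate 2. Col6a3, the third chain of the common molecule, was at 403, 338 and 362 CPM in Control and 438, 405 and 391 CPM in Lhx6-/- libraries, with overlap (0.16, adjusted p = 0.594).

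The alternative type VI chains were rare. Col6a4 (chr9:105989454-106096783, minus strand) was at 0.546, 0.943 and 0.457 CPM in Control and 1.62, 1.504 and 1.16 CPM in Lhx6-/- libraries, apart from each other, and met the fold rule (log2 fold change 1.13, SE 0.38, unadjusted p = 0.0119, adjusted p = 0.317 from edgeR). Its adjusted p was 0.187 or more in each of the 18 alternative fits. Its chromosome 9 neighbours Col6a5 (-0.08) and Col6a6 (0.21) overlapped between groups. The 6 type VI genes together summed to 1226 to 1352 CPM in Control and 1440 to 1596 CPM in Lhx6-/- libraries.

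Of the remaining types, Col28a1 (chr6:7997808-8192617, minus strand), a short beaded collagen known from peripheral nerve, was at 2.603, 2.08 and 1.98 CPM in Control and 4.08, 4.01 and 3.36 CPM in Lhx6-/- libraries, with all Lhx6-/- values above Control. It met the fold rule (log2 fold change 0.78, SE 0.21, unadjusted p = 0.00323, adjusted p = 0.216 from edgeR) and had an adjusted p of 0.0609 or more in each of the 18 alternative fits. The nerve and glia list beside it summed to 313 to 740 CPM in Control and 348 to 764 CPM in Lhx6-/- libraries. In that list 11 of 12 genes were above 0, against 49.7% of all tested genes, and its part was not tested. Col18a1, the source of endostatin in vessel and epithelial basement membranes, was at 86.1 to 104 CPM against 105 to 126 CPM (0.24, unadjusted p = 0.0236, adjusted p = 0.407). Its relative Col15a1 was at 75.6 to 87.2 CPM against 75.0 to 86.9 CPM (0.02). Col10a1, the collagen of hypertrophic cartilage, was at 1.65, 1.496 and 0.355 CPM in Control and 0.491, 0.591 and 0.779 CPM in Lhx6-/- libraries, and the groups overlapped (-0.91, adjusted p = 0.636). Col26a1 overlapped as well (-0.29, adjusted p = 0.664).

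The collagens with all Lhx6-/- libraries below Control were those of the epithelial attachment. Col17a1, a transmembrane collagen of hemidesmosomes, was at 255, 280 and 263 CPM in Control and 222, 222 and 244 CPM in Lhx6-/- libraries (log2 fold change -0.22, SE 0.07, unadjusted p = 0.0133, adjusted p = 0.334 from edgeR). Col7a1, which forms the anchoring fibrils below epithelium, was at 47.8, 50.6 and 36.7 CPM in Control and 35.1, 35.2 and 31.2 CPM in Lhx6-/- libraries (-0.41, SE 0.11, unadjusted p = 0.00355, adjusted p = 0.219). All 20 dental epithelial genes listed were below 0 too. The fold rule was met by 7 of them, against 1.71% of all tested genes in the lower direction. None had an adjusted p under 0.05. Their summed level was 1610 to 2497 CPM in Control and 1187 to 1374 CPM in Lhx6-/- libraries, with no gene at 0. In the 18 alternative fits, the epithelial covariate among them, the log2 fold change ran from -0.613 to -0.298 for Col7a1. For Col17a1 it ran from -0.313 to -0.136. Beyond that covariate fit, the part of epithelium in the levels of Col7a1 and Col17a1 was not tested. The transmembrane collagens Col13a1, Col23a1 and Col25a1 had log2 fold changes of 0.05, 0.05 and 0.13. With the transmembrane collagens left out of the other class, a choice made after seeing the data, its summed difference was 0.19 on the log2 scale instead of 0.14.

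**Figure D5:**
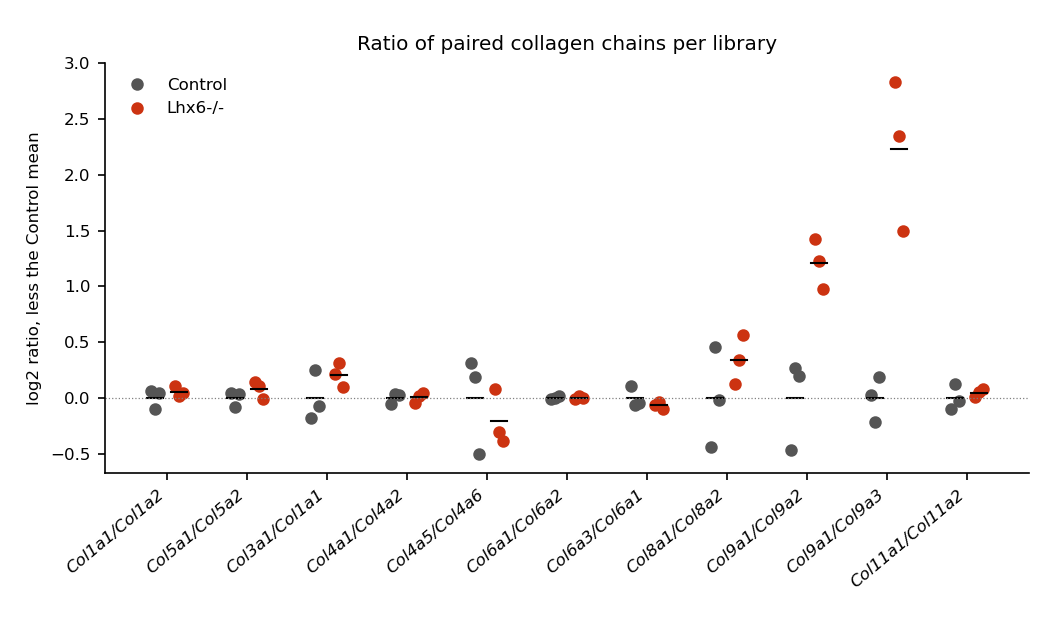
Log2 ratio in CPM of 11 pairs of collagen chains in each library, set to 0 at the Control mean, with a line for each group's mean. The ratios of Col9a1 to Col9a2 and to Col9a3 lie apart between groups by 1.21 and 2.23 on the log2 scale, and the other 9 ratios overlap.

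For most pairs of chains that build 1 protein or meet in 1 fibril, the ratio overlapped between groups. Of 11 ratios, 2 separated the groups, both of Col9a1 as given above, and none could pass 0.05 because the exact permutation test cannot give less than 0.1 here. The ratio of Col5a1 to Col5a2 was 0.69 to 0.75 in Control and 0.72 to 0.80 in Lhx6-/- libraries, and that of Col6a3 to Col6a1 was 0.76 to 0.86 and 0.75 to 0.78. For Col11a1 to Col11a2 the range was 0.46 to 0.54 in Control and 0.50 to 0.52 in Lhx6-/- libraries. That of Col4a5 to Col4a6 varied widely within Control, from 2.32 to 4.07, against 2.51 to 3.46 in Lhx6-/- libraries. Without Control replicate 2, a total of 5 of the 11 ratios separated the remaining libraries.

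The genes that make, secrete, cut, crosslink and bind collagen were read from 5 lists of 54 genes, of which 51 were in the table and 49 were tested. In edgeR none passed the adjusted threshold and none met the fold rule, while 5 had an unadjusted p under 0.05, 4 in the higher direction (4.75% of all tested genes) and 1 in the lower (5.07%). DESeq2 gave 1, Adgrg1, an adjusted p under 0.05, where 315 of all 20114 tested genes passed. The log2 fold changes ran from -0.40 to 0.35, with 39 above 0 and a median of 0.06, against 49.7% above 0 and a median of -0.002 over all genes.

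Of 15 genes for hydroxylation and glycosylation 11 were above 0, with a median of 0.05. The most abundant was P4hb, the shared subunit of prolyl 4-hydroxylase, at 714, 768 and 696 CPM in Control and 700, 674 and 793 CPM in Lhx6-/- libraries (log2 fold change -0.01). Of 11 tested genes for folding and secretion 9 were above 0 (median 0.03). Here Sparc, a matricellular protein that binds collagen, led with 13033, 12020 and 12733 CPM in Control and 12589, 12280 and 13590 CPM in Lhx6-/- libraries (0.03). All 7 tested genes for propeptide processing were above 0 (median 0.15). Pcolce, an enhancer of procollagen cleavage, was at 549, 465 and 506 CPM against 529, 488 and 507 CPM (0.003), and Bmp1, the protease it enhances, had a log2 fold change of 0.03. The 5 genes for crosslinking were above 0 as well (median 0.13), with Lox, the lysyl oxidase, at 380, 488 and 394 CPM in Control and 392, 442 and 555 CPM in Lhx6-/- libraries (0.14, with overlap).

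Of 11 tested receptors and uptake genes 7 were above 0 (median 0.09). Ctsk, a collagen-degrading protease of osteoclasts, was the most abundant at 1164, 1280 and 1225 CPM in Control and 1219, 1104 and 1084 CPM in Lhx6-/- libraries (-0.11). The lowest p of the 5 lists was that of Adgrg1, a receptor that binds type III collagen. It was at 19.2, 20.1 and 18.9 CPM in Control and 15.03, 14.3 and 14.9 CPM in Lhx6-/- libraries, without overlap (log2 fold change -0.40, SE 0.09, unadjusted p = 0.000855 and adjusted p above 0.05 from edgeR). Itga1 and Itga11, subunits of collagen-binding integrins, had log2 fold changes of 0.33 and 0.16 with all Lhx6-/- libraries above Control and unadjusted p of 0.0144 and 0.0409 from edgeR.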

How the data were processed

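The authors trimmed single-end reads of 75 cycles, aligned them to mm10 with STAR (2.6.1d, per the submitters' processing notes) and deposited estimated counts of 23594 genes per library, unnormalized and with at least 10 in some library. The gene counter and annotation are not given in the sources used here. The deposited comparison table was used for gene names, coordinates and group means, which fixed the gene order of the count table (largest relative deviation 8.56e-08). Its columns of p-values, false discovery rates, ratios and fold changes were not used. The coordinates of all 44 collagens match GENCODE vM21.

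The estimated counts were rounded and fitted with edgeR 4.0.16 in R 4.3.3 (TMM, edgeR's expression filter, robust quasi-likelihood, genotype alone, two-sided, Benjamini-Hochberg over 20114 genes). The biological coefficient of variation was 0.202. For abundant genes the spread between 3 libraries per group limits precision, and for rare genes counting error as well. Standard errors (SE) were derived from the F statistic, as the absolute log2 fold change over its root. Sums and chain ratios use TMM-scaled CPM. Sums are given without a p, since the exact permutation test of 3 against 3 libraries cannot go below 0.1. Exon lengths are unions of GENCODE exons. The code was tested on simulated counts.

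The members, classes, lists and tests were chosen with earlier results of these data known. Genes named with values are members that met either rule, the 3 of highest mean CPM per class, both chains of each compared pair, and from each pathway list the genes that met either rule and the most abundant. Any other member or pathway gene named was picked with its values in view. The 18 alternative fits were total-count and upper-quartile scaling, DESeq2 1.42.0, limma-trend (3.58.1) with a prior count of 2, voom with sample weights, no filter, at least 10 counts in every library, non-robust dispersion, a replicate block, leaving out each library, and covariates for Y-linked, dental epithelial and mineralized (osteoblast and odontoblast) genes. Sums that leave out some genes were added once the values had been seen. matplotlib 3.10.9 (Python 3.11.15) drew the figures.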

Additional observations from a re-analysis of the deposited data

How the results depend on the processing

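The number of collagens with an adjusted p under 0.05 was 2 in edgeR and 6 in DESeq2 (Col3a1, Col7a1, Col8a1, Col8a2, Col9a1 and Col9a2). It was 4 with a replicate block, 1 with the epithelial and 1 with the mineralized cell covariate, and 1 to 4 when a library was left out. The number over all tested genes moved too, at 81 in edgeR, 315 in DESeq2 and 134 with a replicate block. That number was 21 with the epithelial and 9 with the mineralized cell covariate, and 12 to 127 when a library was left out. The cause was not tested. The count by the fold rule stayed within 1.5 times in all 18 alternatives. Pathway genes with an adjusted p under 0.05 numbered 0 in edgeR (5 at an unadjusted p under 0.05) and 1, Adgrg1, in DESeq2. The summed collagen level differed by 0.09 on the log2 scale, -0.002 to 0.16 with a library left out, and the fibrillar sum by 0.08, -0.008 to 0.16. Both turned only without Control replicate 2. The other class sums kept their direction in every alternative run.

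Whether the libraries were paired is not given in the labels. The study's methods speak of pairs of samples and of littermates. Replicate numbers here follow the sample titles, and the library names number the Lhx6-/- libraries otherwise. Deviations of same-numbered libraries correlated at 0.094, -0.058 and -0.096. With 3 libraries per group these values cannot settle the pairing. A fit with a replicate block put 4 collagens and 134 of all tested genes under the adjusted threshold. In 4 of 11 chain ratios all same-numbered differences had the same sign, where 2 ratios separated the groups. The number that separated the groups ran from 2 to 5 with a library left out. Under the replicate block the sums were unchanged by construction.

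The sign of some log2 differences turned. Among the genes named with values in every library and those with an unadjusted p under 0.05, these were, without Control replicate 2, Col1a1 (-0.013), Col1a2 (-0.017) and Col11a2 (-0.034), with the epithelial covariate Col1a1 (-0.137), Col1a2 (-0.079), Col11a2 (-0.118) and Col22a1 (-0.009), and with the mineralized cell covariate Col1a1 (-0.001), Col1a2 (-0.024) and Col11a2 (-0.068). With the Y-linked covariate they were Col2a1 (0.075), Col9a3 (-0.149) and Col4a5 (-0.056). Without Lhx6-/- replicate 3 they were Col9a3 (-0.010) and the ratio of Col4a1 to Col4a2 (-0.014), without Lhx6-/- replicate 2 that of Col6a1 to Col6a2 (-0.004), and without Control replicate 1 those of Col4a1 to Col4a2 (-0.022), Col6a1 to Col6a2 (-0.004) and Col11a1 to Col11a2 (-0.006). With each library left out in turn the values ran up to 0.182 for Col1a1, 0.102 for Col1a2, 0.121 for Col11a2 and 0.223 for Col9a3, and up to 0.030, 0.008 and 0.110 for the ratios of Col4a1 to Col4a2, Col6a1 to Col6a2 and Col11a1 to Col11a2. Over all 44 collagens, 6 turned without Control replicate 2, also Col13a1, Col15a1 and Col14a1, and 9 with the epithelial covariate, also Col13a1, Col15a1, Col23a1, Col5a3 and Col14a1. With the mineralized cell covariate 5 turned, also Col15a1 and Col14a1, and with the Y-linked covariate 5, also Col26a1 and Col6a5. In each other alternative at most 2 turned, all among Col15a1, Col14a1, Col6a5, Col6a6 and Col9a3. Between 30 and 38 of 44 collagens had a log2 fold change above 0 in 17 alternatives, and 35 of the 42 left under the stricter filter. Counting error limits genes of few counts such as Col19a1, Col4a3 and Col4a4.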
